A study of Macaca mulatta with 7 samples.

Results

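FKBP5 and 6 further genes of the glucocorticoid response were followed through the nuclei of intact and injured rhesus monkey (Macaca mulatta) spinal cord: NR3C1, TSC22D3, PER1, ZBTB16, KLF9 and SGK1. These 7 genes, of 28966 gene symbols or identifiers in the matrices, were selected by symbol with earlier class-level results of the same libraries known, so their levels and ratios are given as a description with no test. Single-nucleus RNA-seq counts the RNA of individual nuclei as unique molecular identifiers (UMIs). There were 7 libraries, with 1 library in each group. Intact cervical, thoracic and lumbar cord of an untreated adult aged 5 years gave 3 libraries, which by the study's account came from 1 animal. Lumbar cord of animals with a complete thoracic injury gave the other 4, at 7 and 14 days post injury (dpi; age 7 years), at 30 dpi (6 years) and at 6 months post injury (mpi; 6 years). By the study's methods the injury was a surgical removal of a block of thoracic cord under ketamine and isoflurane, and the lumbar tissue taken was spared tissue far from the lesion. Animal, age, time after injury and library preparation cannot be told apart, and the range of the 3 intact libraries holds no spread between animals.

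Glucocorticoids enter cells and bind the glucocorticoid receptor, which NR3C1 encodes and which is held ready by the HSP90 chaperone machinery. The bound receptor moves to the nucleus and switches on a set of genes at glucocorticoid response elements. FKBP5 is one of the best known: its product, a co-chaperone of HSP90, lowers the receptor's affinity for hormone and so closes a negative feedback loop. TSC22D3 (also called GILZ), PER1, ZBTB16, KLF9 and SGK1 are further genes that the receptor is known to induce, and in the nervous system both glia and neurons carry the receptor.

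After removal of poor barcodes and likely doublets, 63730 nuclei remained, with median UMI counts per library between 3191 at 6 mpi and 7355 at 30 dpi. Nuclei were clustered, with the 7 genes left out of the clustering, and clusters were named "-like" from marker genes, with 5 of 42 left unnamed. The 5 main classes were microglia/macrophage-like (1651 to 4610 nuclei per library), oligodendrocyte-like (1901 to 4333), oligodendrocyte precursor cell (OPC)-like (225 to 1496), astrocyte-like (98 to 1733) and neuron-like (792 to 2826). Of their markers, 8 of 8, 5 of 5, 6 of 6, 6 of 6 and 4 of 5 respectively were highest in their own class among these 5, the exception being MAP2, which was higher in OPC-like nuclei. Among the smaller classes, PTPRC of the microglia list was higher in T cell-like and SLC1A3 of the astrocyte list in ependymal-like nuclei. A level is the gene's UMIs scaled to a class total of 1000000 UMIs in the library (CPM), and its exact Poisson 95% interval covers counting error only. A gene was called lower or higher in an injured library when its CPM was at least 2-fold from intact lumbar cord and also outside the range of the 3 intact libraries. The 4 injured libraries share the same intact lumbar reference, and libraries shared at most 36 barcodes in a pair. Since levels are shares of a class total, a median shift over all genes of 0.21 on the log2 scale (microglia/macrophage-like, 6 mpi) was the largest found between an injured library and intact lumbar cord, and it was above 0.1 at 7 dpi and 6 mpi in the other 3 glial classes.

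FKBP5 was lower in injured than in intact cord in all 4 glial classes, by 3.96- to 8.33-fold in microglia/macrophage-like nuclei and by 2.36- to 4.93-fold in astrocyte-like nuclei, while OPC- and oligodendrocyte-like nuclei did not reach 2-fold at every time. ZBTB16 was lower in oligodendrocyte- and astrocyte-like nuclei at all 4 times, though 6 mpi only just reached 2-fold, and in OPC- and, on few UMIs, microglia/macrophage-like nuclei from 7 to 30 dpi, and KLF9 was lower in microglia/macrophage-like nuclei. NR3C1, the receptor itself, stayed within 1.43-fold of intact lumbar cord in all 5 classes and at all 4 times. SGK1 was higher in microglia/macrophage-like nuclei from 14 dpi, and at 6 mpi its log2 ratio was 4.61 to intact lumbar cord, the lowest intact library, and 3.77 to the mean of the 3 intact libraries. In neuron-like nuclei none of the 7 genes was called in any of the 4 injured libraries. Among all genes there, 0.415% were lower and 0.48% higher in all 4 at once. The share called in a single library is not given here.

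**Figure D1:**
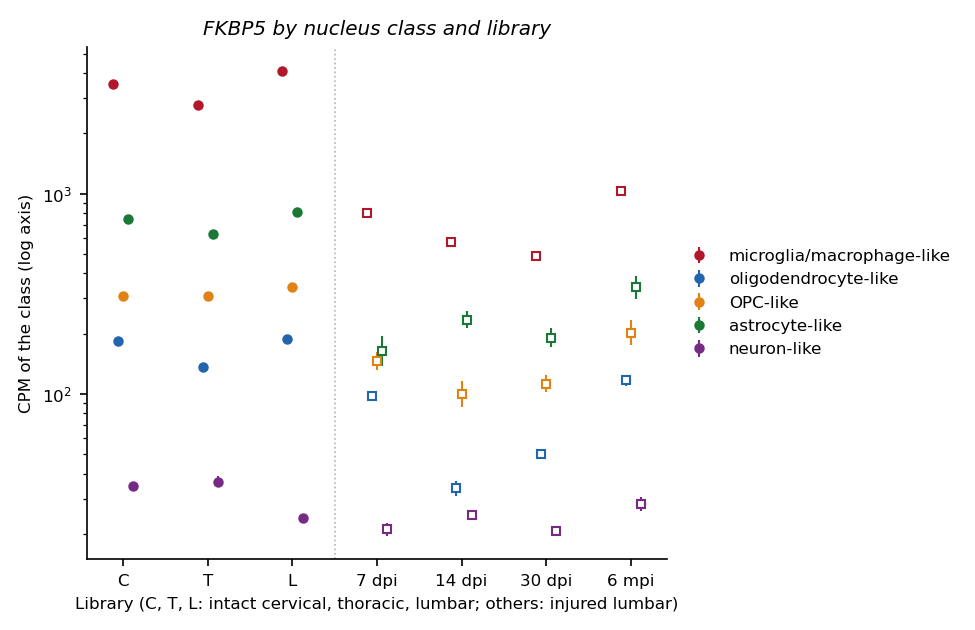
FKBP5 in CPM of the class (log axis) for 5 nucleus classes in the 3 intact libraries (filled circles) and the 4 injured lumbar libraries (open squares); bars are exact Poisson 95% intervals. Every injured point of the 4 glial classes lies under the intact points of its class, whereas the neuron-like points, 20.7 to 36.5 CPM, overlap.

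FKBP5 in microglia/macrophage-like nuclei stood at 3536 CPM in intact cervical (95% interval 3492 to 3579), 2787 in thoracic (2756 to 2819) and 4091 in lumbar cord (4045 to 4137). In injured lumbar cord it stood at 803 (789 to 817), 575 (565 to 585), 491 (482 to 500) and 1033 CPM (1008 to 1058) for 7, 14 and 30 dpi and 6 mpi. The groups did not overlap, 30 dpi was the lowest library and 6 mpi the highest of the injured. Against intact lumbar cord the log2 ratios at these times were -2.35 (95% interval -2.38 to -2.32), -2.83 (-2.86 to -2.80), -3.06 (-3.09 to -3.03) and -1.99 (-2.02 to -1.95). The difference was also seen nucleus by nucleus. When each nucleus was thinned to 1000 UMIs, with no nucleus left out, 83.9 to 93.7% of intact microglia/macrophage-like nuclei held an FKBP5 UMI, against 47.0, 39.9, 35.5 and 59.1% for the 4 injured libraries in order of time. Without thinning the shares were 97.9 to 99.0% in intact and 74.6 to 81.4% in injured cord, where the median nucleus of the class held 3234 to 4019 and 2402 to 5811 UMIs. In neuron-like nuclei, used as the low end, the thinned share was 2.27 to 3.54% over all 7 libraries.

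Microglia/macrophage-like nuclei of intact and injured cord lay in different clusters, so the comparison is also one between clusters. Intact nuclei filled cluster 0, whose leading genes included MRC1, CD163, CX3CR1, CSF1R and FKBP5 itself. They also filled the smaller cluster 29, led by NR4A genes, CXCL8 and IL1B. Injured nuclei filled cluster 8 and the dividing cluster 25 (7 dpi), cluster 3 (14 dpi), clusters 10 and 14 (30 dpi, the latter led by GPNMB) and clusters 15 (GPNMB) and 18 (6 mpi). FKBP5 in clusters 0 and 29 was 2777 to 4175 CPM, over all intact libraries with at least 50 nuclei there. In the 7 clusters of injured cord it was 445 to 1299 CPM. Clusters 14 and 3 each held at least 50 nuclei of 14 dpi, 30 dpi and 6 mpi. In cluster 14 these had 525, 445 and 909 CPM (95% interval of the last 778 to 1055, from 54 nuclei). In cluster 3 they had 581 (570 to 592), 765 (718 to 814) and 1236 CPM (1082 to 1405, from 58 nuclei). There 30 dpi was above 14 dpi, unlike in the class. In cluster 10 the 30 dpi and 6 mpi nuclei had 485 and 1299 CPM (1134 to 1481, from 56 nuclei). The 6 mpi library was thus the highest of the injured libraries also within a cluster.

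**Figure D2:**
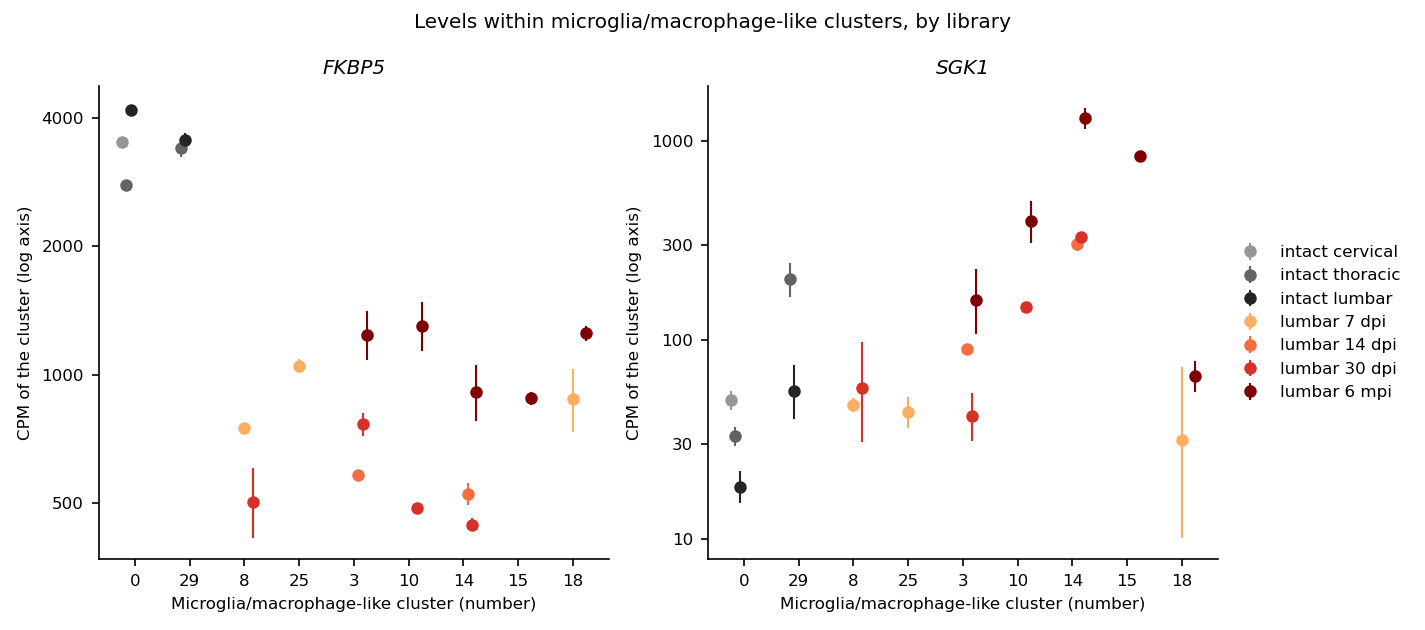
FKBP5 (left) and SGK1 (right) in CPM (log axes) within each microglia/macrophage-like cluster, one point per library with at least 50 nuclei there and bars for exact Poisson 95% intervals. FKBP5 separates clusters 0 and 29 of intact cord (2777 to 4175) from all 7 clusters of injured cord (445 to 1299), whereas SGK1 reaches its highest level, 1305, in cluster 14 at 6 mpi.

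Of 6 genes of perivascular macrophages, 3 were lower in all 4 injured libraries of this class (CD163, MRC1 and LYVE1) and 1 was higher (SIGLEC1), where 1.36% and 2.22% of all genes were. F13A1 was not called at all 4 times, at 50.7 to 61.2 CPM in intact and 80.7 to 211 CPM in injured cord. The summed level of the 6 genes was 1007 to 1689 CPM in intact and 235 to 662 CPM in injured cord. Without the nuclei that held a UMI of LYVE1 or F13A1 the FKBP5 log2 ratios were -2.44, -2.91, -3.13 and -2.03 at the 4 times. That step removed 230 to 364 nuclei per intact and 286 to 1802 per injured library, but it left CD163 at 379 to 759 CPM in intact and 53.4 to 219.6 CPM in injured cord. MRC1 was left at 439 to 743 CPM in intact and 43.6 to 105.8 CPM in injured cord. Both CD163 and MRC1 were among the leading genes of cluster 0, the main cluster of intact nuclei. The part of nuclei rich in CD163 and MRC1 in the FKBP5 difference was not tested. The 8 microglia markers summed to 4933 to 5178 CPM in intact and 3350 to 4778 CPM in injured cord.

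T cell-like nuclei were few, 17 to 122 per library. FKBP5 there stood at 2631, 2774 and 1633 CPM in intact cervical, thoracic and lumbar cord and at 995, 582, 371 and 430.03 CPM from 7 dpi to 6 mpi. The groups did not overlap in this class either. Ependymal-like nuclei gave 29.8 to 203 CPM in intact and 60.9 to 129 CPM in injured cord, with overlap.

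FKBP5 lies on the forward strand of chromosome 4 (Mmul_10, chr4:133793958-133913446; RefSeq annotation). The receptor binds as a pair to an inverted repeat of AGAACA with 3 free bases between, and FKBP5 is known for such elements in its introns. An exact search for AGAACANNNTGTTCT, which reads the same on both strands, found 594 matches on the 22 chromosomes. Of 20775 protein-coding genes, 1.25% held a match in the gene body, and of the 7 genes only FKBP5 and NR3C1 did, with 1 each. Both are shown with 7 bases on either side, on the strand of the gene and with the motif in capitals, because they are where the receptor's textbook sequence stands in these genes.

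FKBP5, chr4:133884145-133884173, forward strand: cacattcAGAACAGGGTGTTCTgtgctct
NR3C1, chr6:141068106-141068134, reverse strand: atatttcAGAACAAGCTGTTCTgaaatat

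The FKBP5 match lies 90194 bases from the gene start, in an intron of its 1 annotated transcript. The NR3C1 match (gene at chr6:140690312-141146718) overlaps no annotated exon and lies within 2 of 10 annotated transcripts. Windows of the length of FKBP5 tiled across the genome held a match in 2.44% of cases, and windows of the length of NR3C1 in 9.002%. None of the 7 genes had a match in the 300 bases around its start (250 before, 50 after), which 0.0144% of genes had, or within 10 kb of it, which 0.419% had. A match or its absence describes letters in the reference genome, not receptor binding, which was not measured.

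In astrocyte-like nuclei FKBP5 stood at 751, 631 and 809.7 CPM in intact cervical, thoracic and lumbar cord. It stood at 164 (137 to 195), 234 (212 to 258), 191 (171 to 212) and 343 (300 to 390) CPM at 7, 14 and 30 dpi and 6 mpi, from 98, 254, 152 and 116 nuclei. The groups did not overlap, and 6 mpi was again the highest injured library. On the log2 scale the ratios to intact lumbar cord were -2.30 (-2.56 to -2.05), -1.79 (-1.94 to -1.64), -2.09 (-2.25 to -1.93) and -1.24 (-1.44 to -1.05). Both astrocyte-like clusters, 9 and 13, held intact and injured nuclei, and FKBP5 was 595 to 857 CPM in intact and 177 to 352 CPM in injured libraries with at least 50 nuclei there.

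In OPC-like nuclei FKBP5 stood at 309.9, 309 and 342 CPM in the 3 intact libraries and at 146, 100.3, 113 and 203 CPM in the injured ones. The log2 ratios were -1.22 (-1.40 to -1.06), -1.77 (-2.01 to -1.54), -1.61 (-1.76 to -1.45) and, for 6 mpi, -0.76 (-0.98 to -0.54). The first 3 met the rule of size and the last did not, although all 4 lay below the intact range. With each nucleus named alone the 7 dpi ratio was -0.66, which ends that call. Most of these nuclei lay in cluster 4 in every library, where FKBP5 was 278 to 340.2 CPM in intact and 99.1 to 203 CPM in injured cord.

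In oligodendrocyte-like nuclei FKBP5 stood at 184, 137 and 187 CPM in intact cord. In injured cord it stood at 97.5, 33.7, 50.3 and 117 CPM. The log2 ratios were -0.94 (-1.02 to -0.87), -2.47 (-2.61 to -2.34), -1.90 (-1.99 to -1.81) and -0.68 (-0.78 to -0.58), so 14 and 30 dpi met the rule and 7 dpi and 6 mpi did not. Here too intact nuclei (clusters 1, 6 and 7) and injured nuclei (clusters 2, 11 and 12) lay mostly apart. Cluster 2, the main injured cluster, gave 68.6, 17.6, 28.2 and 94.0 CPM from 7 dpi to 6 mpi, against 109 (68.1 to 164) in the 54 intact lumbar nuclei it held. Clusters 1, 6 and 7 held 217, 164 and 78 nuclei of 6 mpi, with FKBP5 at 87.4 (67.4 to 111), 129 (105 to 157) and 156 CPM (127 to 190.1), against 182, 227 and 168 CPM (160 to 177) in their intact lumbar nuclei. The 6 mpi library was thus lower within clusters 1 and 6, while in cluster 7 the intervals overlapped.

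Free RNA from microglia was gauged by 5 microglia markers. They were at 0.199 to 1.32% (median) of their microglia level in intact astrocyte-like nuclei and at 2.53 to 3.57% in injured ones, whereas FKBP5 was at 19.8 to 22.7% and 20.4 to 40.8%. For oligodendrocyte-like nuclei the marker medians were 0.155 to 0.303% and 0.516 to 1.06%, and FKBP5 was at 4.58 to 5.202% and 5.86 to 12.1%. OPC-like marker medians were 0.148 to 1.62% and 1.11 to 2.47%, with FKBP5 at 8.37 to 11.1% and 17.4 to 22.9%. FKBP5 thus stood above the marker medians in every library of these 3 classes. With it subtracted, the astrocyte-like log2 ratios were -2.48, -1.87, -2.20 and -1.39.

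Neuron-like nuclei held the least FKBP5, 34.7, 36.5 and 23.9 CPM in intact and 21.1, 24.8, 20.7 and 28.2 CPM in injured cord. The groups overlapped, and log2 ratios to intact lumbar cord ran from -0.21 to 0.24. In this class FKBP5 was at 0.585 to 4.32% of its microglia level, where the 5 microglia markers had medians of 0.389 to 1.40%. In intact lumbar cord that is close to the level of free RNA. FKBP5 also lay inside the range of the 5 single markers in the 3 intact libraries and at 6 mpi. It lay above that range at 7, 14 and 30 dpi. With the marker median subtracted, 19.9, 21.9 and 8.02 CPM were left in intact and 13.7 to 17.7 CPM in injured cord, so the ratios to intact lumbar cord turned to 0.78 to 1.14 on the log2 scale while the injured libraries lay inside the intact range. The highest neuron-like cluster stood at 188 CPM at 7 dpi and 140.3 CPM in intact cervical cord, with medians over clusters of 19.0 to 32.4 CPM.

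In intact cord the order of the 5 main classes by FKBP5 was the same in each of the 3 libraries: microglia/macrophage-like, astrocyte-like, OPC-like, oligodendrocyte-like and neuron-like. The same order stood in all 4 injured libraries, though at 7 dpi the astrocyte-like (137 to 195) and OPC-like (131 to 163) intervals overlapped. Over the 35 points of 5 classes in 7 libraries, the genes whose log2(CPM + 1) followed FKBP5 most closely were SON (Pearson r = 0.92), ATAD2B (0.92), MAP3K20 (0.92), SUCLG2 (0.91) and GNG5 (0.91), out of 14432 genes. These points share 7 libraries and their depths, and most of the spread is between classes. In microglia/macrophage-like nuclei SON was 611 to 641 CPM in intact and 308 to 366 CPM in injured cord, and MAP3K20 was 256 to 287 and 176 to 235 CPM. ATAD2B was 346 to 360.3 and 314 to 325.1 CPM. SUCLG2 was 406 to 434 and 311 to 461 CPM, and GNG5 was 25.6 to 34.1 and 22.0 to 34.2 CPM. The 5 genes were picked over points that include these same libraries. The share of all genes without overlap between the groups is not given here. NR3C1 followed FKBP5 with r = 0.81 over the same points, again a pattern between classes.

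The receptor gene NR3C1 lies on chromosome 6, on the reverse strand. In microglia/macrophage-like nuclei it stood at 634, 661 and 642 CPM in intact cord and at 525, 656, 689 and 783 CPM from 7 dpi to 6 mpi. The groups overlapped. Its log2 ratio there ran from -0.29 (-0.34 to -0.24) at 7 dpi to 0.29 (0.23 to 0.34) at 6 mpi. Oligodendrocyte-like nuclei gave 329 to 352 CPM in intact and 289 to 414 CPM in injured cord. Astrocyte-like nuclei gave 279 to 318 and 212 to 350.3 CPM, and neuron-like nuclei 93.4 to 101 and 81.3 to 110.5 CPM. In OPC-like nuclei all 4 injured libraries (314 to 446 CPM) lay under the intact range (449 to 480.3), 14 dpi and 6 mpi narrowly and 7 dpi by the most. The largest ratio of all was at 7 dpi in that class, -0.51 (-0.64 to -0.39), and 7 dpi was the lowest library in 4 of the 5 classes. None of these 20 ratios met the rule of size.

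**Figure D3:**
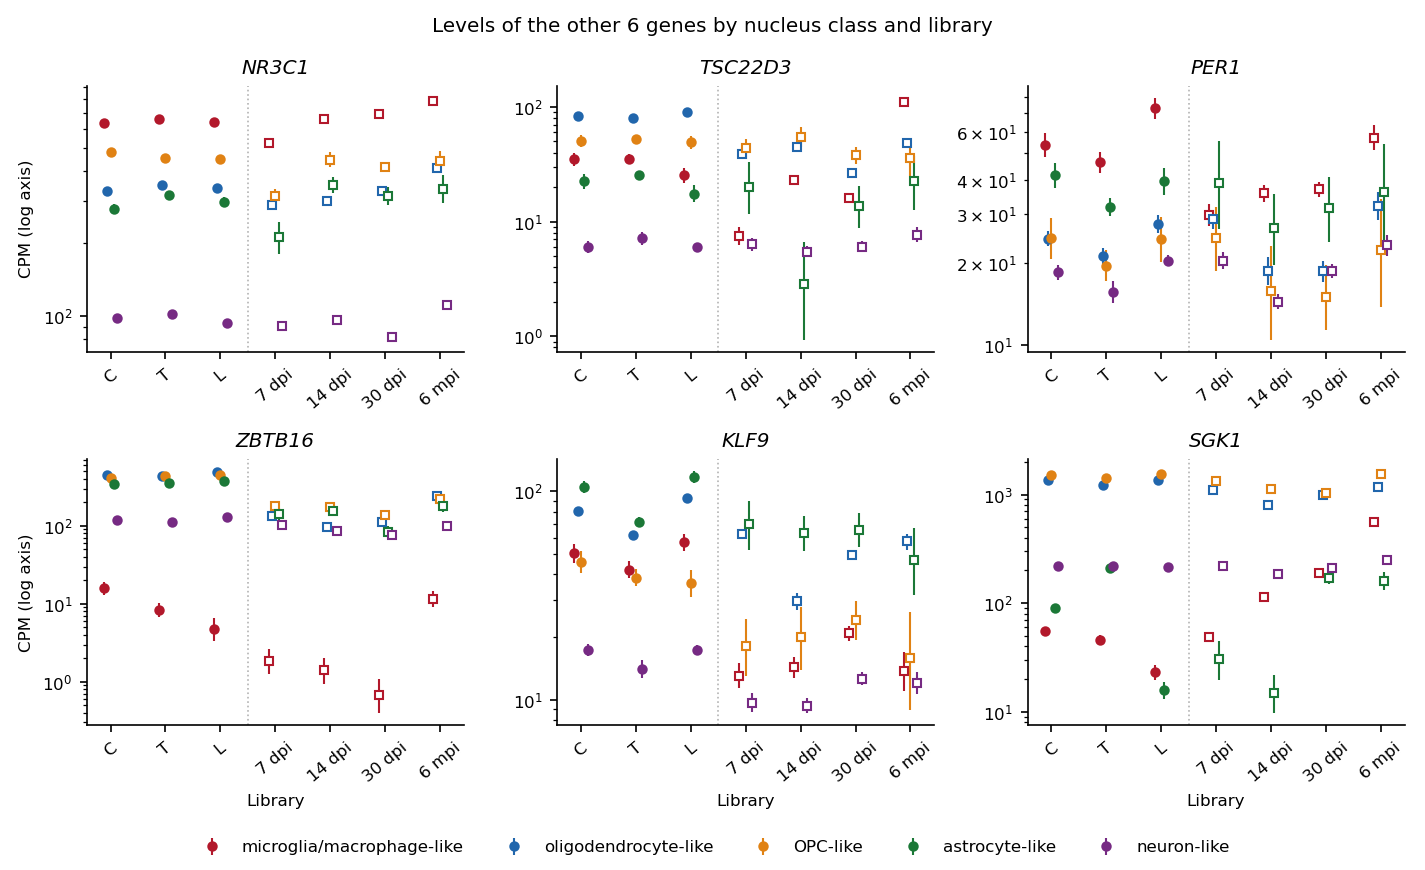
NR3C1, TSC22D3, PER1, ZBTB16, KLF9 and SGK1 in CPM of the class (log axes, each with its own range) in the 3 intact (C, T, L; filled circles) and 4 injured lumbar libraries (open squares), with exact Poisson 95% intervals. NR3C1 stays within 1.43-fold of intact lumbar cord, ZBTB16 lies below the intact points in all injured oligodendrocyte-, OPC- and astrocyte-like libraries and in the microglia/macrophage-like ones from 7 to 30 dpi, and SGK1 stands at 48.9 CPM at 7 dpi and 563 CPM at 6 mpi in microglia/macrophage-like nuclei.

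ZBTB16 (chr14:107205938-107403230, forward strand) encodes PLZF, a zinc finger repressor of transcription. In oligodendrocyte-like nuclei it stood at 451, 432 and 493 CPM in intact cord and at 135, 97.3, 113 and 239.7 CPM in injured cord. The groups did not overlap, with 14 dpi the lowest and 6 mpi the highest injured library. The log2 ratios were -1.86 (-1.92 to -1.81), -2.34 (-2.42 to -2.26), -2.12 (-2.18 to -2.06) and -1.04 (-1.11 to -0.97), the last only just past 2-fold. Taking the mean of the 3 intact libraries as the reference gave -0.94 at 6 mpi, and weighting nuclei equally gave -0.98, either of which ends that call. The share of thinned nuclei with a ZBTB16 UMI was 36.8 to 40.1% in intact cord and 12.4, 9.21, 10.501 and 22.8% in injured cord. In neuron-like nuclei that share was 7.05 to 11.4%.

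Cluster by cluster, ZBTB16 of intact oligodendrocyte-like nuclei was 495 to 696 CPM in clusters 1 and 6 and 262 to 312 CPM in cluster 7. The injured clusters 2 and 12 gave 108 to 325 CPM and cluster 11, with the deepest injured nuclei, 69.2 to 126 CPM. In the 217 nuclei of cluster 1 that came from 6 mpi it was 331 CPM (291 to 375), against 675 (658 to 693) in intact lumbar nuclei of the same cluster.

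OPC-like nuclei gave 407, 438 and 445 CPM of ZBTB16 in intact cord and 178, 172, 139 and 223 CPM in injured cord. Astrocyte-like nuclei gave 348, 358 and 380.2 CPM, then 141, 153, 84.5 and 179.7 CPM. In both classes the injured libraries lay below every intact one, with 30 dpi lowest and 6 mpi highest. The log2 ratios were -0.997 to -1.68 in OPC-like and -1.08 to -2.17 in astrocyte-like nuclei. The OPC-like value at 6 mpi, 1.996-fold with an interval of -1.21 to -0.79 on the log2 scale, missed the 2-fold rule by less than its counting error. The astrocyte-like call at 6 mpi ended with each nucleus named alone (-0.9995) and with nuclei weighted equally (-0.89). Neuron-like nuclei gave 110.3 to 131 CPM in intact and 76.6 to 103 CPM in injured cord, without overlap, but at most 1.72-fold lower. In microglia/macrophage-like nuclei ZBTB16 was near its floor of detection, 17 to 112 UMIs per library, at 4.77 to 15.7 CPM in intact cord, 0.674 to 1.86 CPM from 7 to 30 dpi and 11.6 CPM at 6 mpi. It was called lower at 7, 14 and 30 dpi (log2 ratios -1.36, -1.77 and -2.82), while 6 mpi lay inside the intact range. The 7 dpi call ended with doublets kept (-0.92) and without nuclei with LYVE1 or F13A1 (-0.88), and the 14 dpi call with each nucleus named alone (-0.65).

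KLF9 (chr15:85803079-85830014, reverse strand) encodes a Krüppel-like transcription factor. The microglia/macrophage-like level was 50.5, 42.1 and 56.8 CPM in intact cord and at 13.1, 14.3, 20.8 and 13.8 CPM in injured cord. The groups did not overlap. The log2 ratios were -2.12 (-2.37 to -1.88), -1.99 (-2.21 to -1.77), -1.45 (-1.64 to -1.26) and -2.04 (-2.39 to -1.71), and here, unlike FKBP5, 6 mpi was not the highest injured library. Injured libraries lay below the intact range in OPC-like (15.9 to 24.2 against 36.3 to 45.9 CPM), astrocyte-like (46.8 to 69.4 against 71.5 to 117) and neuron-like nuclei (9.34 to 12.6 against 14.0 to 17.3) too. Only 3 of those 12 ratios met the 2-fold rule: 7 dpi and 6 mpi in OPC-like, from 42 and 15 UMIs, and 6 mpi in astrocyte-like nuclei, from 31 UMIs. The share of all genes called in a single library is not given here, nor the share below the intact range. These counts are therefore a description only. The OPC-like call at 7 dpi ended with doublets kept (-0.93) and at cluster resolution 2 (-0.91). In oligodendrocyte-like nuclei 14 dpi alone did, at 29.7 CPM against 62.0 to 92.5 in intact cord.

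TSC22D3 (chrX:104454859-104519281, reverse strand) encodes GILZ, a leucine zipper protein that carries part of the anti-inflammatory action of glucocorticoids. In oligodendrocyte-like nuclei it stood at 83.2, 79.8 and 90.6 CPM in intact cord and at 38.5, 45.1, 26.5 and 48.8 CPM in injured cord. The groups did not overlap, and the rule of size was met at 7, 14 and 30 dpi and missed at 6 mpi (log2 ratio -0.89, -1.04 to -0.74). The 14 dpi ratio, -1.01, became -0.91 against the mean of the 3 intact libraries, -0.99 with each nucleus named alone and -0.98 with median-of-ratios scaling, each of which ends that call. By oligodendrocyte-like cluster, intact nuclei had 132 to 137 CPM in cluster 1, 94.5 to 106 in cluster 6 and 35.8 to 39.0 in cluster 7. Injured nuclei in clusters 2, 12 and 11 had 45.2 to 70.2, 27.5 to 45.3 and 11.6 to 26.7 CPM. The part of the cluster mix in the class ratios was not tested. In microglia/macrophage-like nuclei the values were 34.9, 35.1 and 25.4 CPM in intact cord, then 7.55, 23.1, 16.0 and 111 CPM. TSC22D3 thus had the lowest library at 7 dpi (log2 ratio -1.75, -2.09 to -1.41) and the highest at 6 mpi (2.13, 1.89 to 2.37) within the same class. On the few nuclei outside clusters mostly of 1 library these ratios were -0.29 and 0.68, which ends both calls. At 6 mpi it was 174 CPM (161 to 189) in cluster 15, led by GPNMB, and 18.3 CPM (12.7 to 25.4) in cluster 18. OPC-like (36.1 to 55.1 CPM), astrocyte-like (2.84 to 25.3) and neuron-like nuclei (5.46 to 7.70) overlapped between groups, and the 1 call among them, astrocyte-like at 14 dpi, rests on 5 UMIs.

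PER1 (chr16:7942485-7958479, reverse strand) is a core gene of the circadian clock as well as a target of the receptor. Its level in microglia/macrophage-like nuclei was 53.7, 46.4 and 72.9 CPM in intact cord and at 29.8, 35.8, 37.0 and 57.0 CPM in injured cord. The 6 mpi library lay inside the intact range and the other 3 below it, with log2 ratios of -1.29 (-1.48 to -1.11), -1.03 (-1.19 to -0.86) and -0.98 (-1.14 to -0.82), of which the first 2 met the rule of size. Intact lumbar cord was the highest intact library, and against the mean of the 3 these ratios were -0.95 and -0.69 at 7 and 14 dpi, which ends both calls. In the other 4 classes no PER1 ratio met the rule of size, at log2 ratios of -0.70 to 0.21. The time of day of sampling is not given in the sources used here.

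SGK1 (chr4:37761173-37912105, reverse strand) encodes a serum- and glucocorticoid-regulated kinase. Its level in microglia/macrophage-like nuclei was 54.9, 46.2 and 23.0 CPM in intact cord and at 48.9, 114, 191 and 563 CPM from 7 dpi to 6 mpi. The 7 dpi library lay inside the intact range, and the other 3 lay above it, in order of time. The log2 ratios were 1.09 (0.84 to 1.33), 2.31 (2.08 to 2.54), 3.05 (2.83 to 3.28) and 4.61 (4.39 to 4.84). Since intact lumbar cord was the lowest intact library, the ratios to the mean of the 3 intact libraries were smaller, 0.24, 1.47, 2.21 and 3.77. With doublets kept the ratios to intact lumbar cord were 0.80, 1.51, 2.24 and 3.75. The share of thinned nuclei with an SGK1 UMI was 2.30 to 4.48% in intact cord and 4.15, 8.44, 14.1 and 28.2% in injured cord.

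At 14 dpi cluster 3 held more SGK1 UMIs (1615) than the GPNMB-led cluster 14 (636). Clusters 14 and 10 held 2354 and 2328 at 30 dpi. At 6 mpi the GPNMB-led cluster 15 held 3104, against 247 in cluster 14 and 126 in cluster 18. Cluster 14 gave 303 (280.1 to 328), 328 (315 to 342) and 1305 CPM (1148 to 1479) for its nuclei of 14 dpi, 30 dpi and 6 mpi, and cluster 15 gave 839.8 (810.5 to 869.8) for its 6 mpi nuclei. In cluster 18, the other main cluster of 6 mpi, it was 65.8 CPM (54.8 to 78.3). Outside these clusters, cluster 3 gave 90.2 CPM at 14 dpi, and cluster 10 gave 146 at 30 dpi and 396 (308 to 502) at 6 mpi. In intact cord cluster 29 reached 202 CPM (165 to 245) in the thoracic library and stood at 55.6 CPM in the lumbar one. The thoracic value lay above cluster 3 at 14 dpi and cluster 10 at 30 dpi, and below cluster 14 at both times. Oligodendrocyte-like nuclei hold far more SGK1, and the 5 oligodendrocyte markers summed to 986 to 1263 CPM in intact and 966 to 1465 CPM in injured microglia/macrophage-like nuclei. Their part in the SGK1 level was not tested.

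In oligodendrocyte-like nuclei SGK1 stood at 1358, 1233 and 1362 CPM in intact cord and at 1103, 797, 993 and 1176 CPM in injured cord. The injured libraries lay below the intact ones, by at most 1.71-fold. OPC-like (1041 to 1558 CPM) and neuron-like nuclei (187 to 248 CPM) overlapped between groups, and no ratio there met the rule of size. Astrocyte-like nuclei spanned 15.8 to 211 CPM over the intact libraries alone and 14.8 to 170.1 CPM over the injured ones. Log2 ratios to intact lumbar cord, the lowest intact library, were 3.43 at 30 dpi and 3.34 at 6 mpi. Both levels lay inside the intact range, so neither was called. The summed oligodendrocyte markers of that class moved with SGK1. They were 716, 3244 and 326 CPM in intact and 798, 351, 1661 and 1797 CPM in injured cord. Their part in SGK1 there was not tested.

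**Figure D4:**
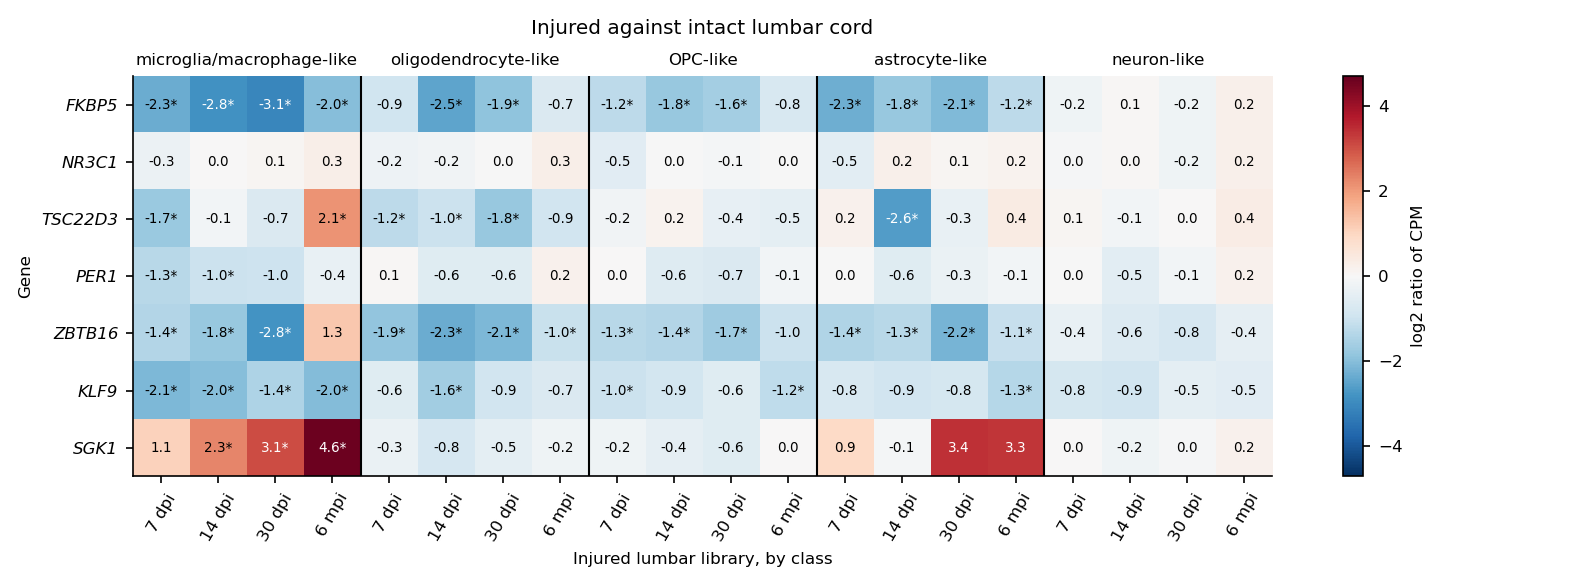
Log2 ratios of CPM, injured over intact lumbar cord, for 7 genes (rows) and 4 times in each of 5 classes (columns); blue is lower and red higher, and a star marks a ratio of at least 2-fold that also lies outside the range of the 3 intact libraries. FKBP5, ZBTB16 and KLF9 are blue through most glial columns, NR3C1 is pale throughout, and SGK1 is red in the microglia/macrophage-like columns, up to 4.61. SGK1 is also red, without a star, in the astrocyte-like columns of 30 dpi (3.43) and 6 mpi (3.34).

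Counting the genes called in all 4 injured libraries gives the compact view, with the share of all genes called by the same rule beside it. All 7 genes had at least 50 UMIs in the compared pair at every time in every class. In microglia/macrophage-like nuclei 2 of 7 were lower (FKBP5 and KLF9), where 1.36% of 11027 genes were, and 0 of 7 were higher, where 2.22% were. In oligodendrocyte-like nuclei 1 of 7 was lower (ZBTB16), against 0.677% of 12254 genes, and 0 higher, against 0.89%. OPC-like nuclei gave 0 of 7 in either direction, against 0.274% lower and 0.24% higher of 8755 genes. Without the 6 mpi library, an exclusion chosen after seeing the data, 2 of 7 were lower there (FKBP5 and ZBTB16), against 0.589% of 9005 genes, and 2 of 7 in oligodendrocyte-like nuclei (ZBTB16 and TSC22D3, the latter resting on its 14 dpi call), against 1.03% of 12520 genes. In astrocyte-like nuclei 2 of 7 were lower (FKBP5 and ZBTB16), against 0.467% of 10269 genes, and 0 higher, against 0.555%. In neuron-like nuclei 0 of 7 were called, against 0.415% lower and 0.48% higher of 16880 genes. Since the 7 genes were selected with these ratios known, the shares are printed as background only.

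The other parts of the pathway were taken from lists, counted over the genes with at least 50 UMIs in every compared pair. Of the receptor machinery (HSP90 chaperones, co-chaperones, hormone-converting enzymes, coregulators and the mineralocorticoid receptor NR3C2), 0 of 11 to 14 genes were called in all 4 libraries in any class. By class and direction 0.24 to 2.22% of all genes were called, so this count of 0 says little about the list. The list medians lay between -0.21 and 0.20 on the log2 scale. NR3C2 was 278 to 313 CPM in intact and 166 to 295 CPM in injured microglia/macrophage-like nuclei. HSD11B1, which regenerates active glucocorticoid, was higher in all 4 in that class but too sparse for the count, with 3 to 10 UMIs per intact library and 20 to 126 per injured one.

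Of 30 other genes known to be induced by glucocorticoids, 21 could be counted in microglia/macrophage-like nuclei, with members in both directions. There 4 were lower in all 4 injured libraries: DDIT4, TXNIP, IRS2 and CD163, where 1.36% of all genes were. TXNIP, which curbs glucose uptake and binds thioredoxin, stood at 729, 486 and 635 CPM in intact and 121, 138, 121 and 306 CPM in injured cord. DDIT4, an inhibitor of mTOR signalling, stood at 209, 107 and 181 CPM and then at 51.6, 20.4, 23.0 and 35.4 CPM. IRS2, an insulin receptor substrate, stood at 131, 128 and 155 CPM and then at 36.9, 39.1, 30.0 and 44.8 CPM. The call itself requires each injured library to lie below the intact range, so the lack of overlap is no further result. The 6 mpi library was the highest injured one for TXNIP and IRS2, as it was for FKBP5. For DDIT4 the earliest injured library was the highest (51.6 CPM), and for CD163 the 6 mpi library was the lowest (71.3 CPM). CD163, a scavenger receptor of macrophages, was 417 to 808 CPM in intact and 71.3 to 284 CPM in injured cord and is in the perivascular list too.

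KLF6 and BCL6 were higher in all 4, where 2.22% of all genes were. KLF6, a transcription factor, stood at 57.7 to 62.7 CPM in intact and 159 to 228 CPM in injured cord, and BCL6, a repressor, at 23.3 to 27.9 and 58.9 to 127 CPM. The list's median log2 ratio was -0.66, -0.04, -0.22 and 0.15 at the 4 times, where that of all genes was 0.06, -0.08, -0.05 and 0.21.

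**Figure D5:**
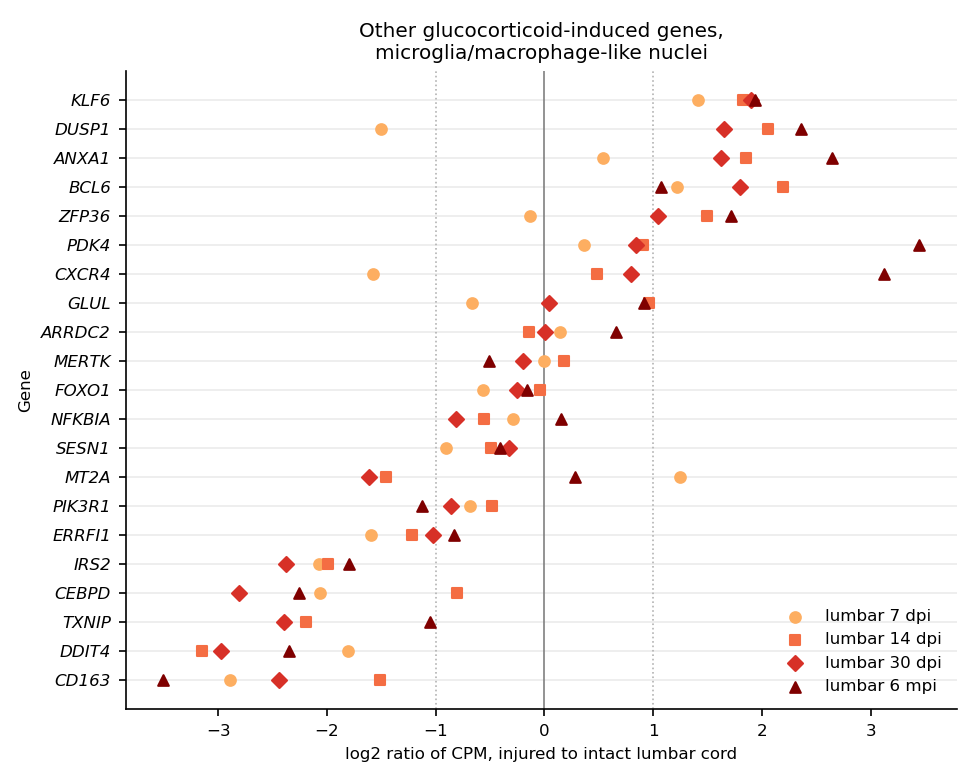
Log2 ratios of CPM, injured over intact lumbar cord, in microglia/macrophage-like nuclei for the 21 other glucocorticoid-induced genes with at least 50 UMIs in every pair, one symbol per injured library; dotted lines mark 2-fold. CD163, DDIT4, TXNIP and IRS2 lie beyond 2-fold on the lower side at all 4 times, KLF6 and BCL6 on the higher side, and genes such as DUSP1 lie on both sides.

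In oligodendrocyte-like nuclei 21 genes of this list could be counted, and 0.677% of all genes there were lower and 0.89% higher. KLF15, another Krüppel-like transcription factor, was lower in all 4 (10.9 to 11.9 CPM in intact, 3.76 to 5.58 CPM in injured cord). TGFBR3, a co-receptor for TGF-beta, was higher (0.98 to 1.15 against 9.25 to 50.04 CPM), and so was ZFP36, which destabilises inflammatory mRNAs (0.747 to 1.47 against 3.80 to 10.1 CPM). Astrocyte-like nuclei had the same pattern for KLF15 (21.3 to 23.5 against 5.17 to 10.1 CPM, from 4 to 12 UMIs per injured library) and ZFP36 (7.88 to 12.7 against 28.7 to 42.5 CPM), among 23 genes counted, beside 0.467% lower and 0.555% higher of all genes. In OPC-like (14 counted) and neuron-like nuclei (26 counted) none was called in all 4. Among all genes 0.274% were lower and 0.24% higher in OPC-like nuclei, and 0.415% and 0.48% in neuron-like nuclei. CXCR4 in oligodendrocyte-like, RASD1 and CAVIN2 in astrocyte-like and HIF3A in OPC-like nuclei were called on too few UMIs to be counted.

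Of the inflammatory genes that glucocorticoids repress, 10 could be counted in microglia/macrophage-like nuclei, and ICAM1, an adhesion molecule, was higher in all 4 (2.96 to 4.50 CPM in intact, 16.1 to 24.4 CPM in injured cord), as 2.22% of all genes were. The list median was 0.04, 0.79, 1.59 and 0.23 on the log2 scale. In neuron-like nuclei SOD2, the mitochondrial superoxide dismutase, was lower in all 4 (46.3 to 58.0 against 18.1 to 20.9 CPM), 1 of 6 counted against 0.415% of all genes. CCL2 was higher in all 4 in oligodendrocyte-, OPC- and neuron-like nuclei but on too few UMIs to be counted. Of the other clock genes, 0 of 8 to 13 were called in all 4 libraries in any class. Among all genes 0.24 to 2.22% were, by class and direction, so this 0 says little about clock genes.

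Immediate early genes, which also respond to tissue handling, gave 0 of 8 called in all 4 in microglia/macrophage-like nuclei. Among all genes there 1.36% were lower and 2.22% higher. The list medians were -0.08, 1.95, 1.31 and 1.76. FOS stood there at 47.1, 161 and 69.5 CPM in intact cord and at 57.3, 613, 307 and 506 CPM in injured cord. FOS and JUN were higher in all 4 in oligodendrocyte-like nuclei (FOS 0.98 to 1.89 against 5.79 to 16.8 CPM) and in astrocyte-like nuclei (FOS 3.63 to 8.76 against 16.4 to 96.1 CPM), 2 of 3 counted in each, where 0.89% and 0.555% of all genes were higher. EGR1 was called in astrocyte-like nuclei as well, on too few UMIs to be counted. Their part in the levels of the 7 genes was not tested.

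Among the perivascular macrophage genes called in microglia/macrophage-like nuclei, MRC1, the mannose receptor, was 459.7 to 733 CPM in intact and 45.6 to 106 CPM in injured cord, and LYVE1 was 3.23 to 15.8 and 0.157 to 0.476 CPM. SIGLEC1 was 0.682 to 2.42 CPM in intact, from 5 to 27 UMIs, and 15.3 to 20.03 CPM in injured cord.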

How the data were processed

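By the labels, nuclei were released with a dounce grinder in lysis buffer and processed with 10x Chromium V3 chemistry. The authors aligned the reads to Mmul_10 with Cell Ranger 6.0.0 and deposited 1 matrix of raw UMI counts per library, with 35432 identifiers each. Which annotation release they used is not given in the sources used here. No barcode held fewer than 500 UMIs, so some selection preceded deposition. UMIs of identifiers with the same symbol were summed, and 959 identifiers were named from the reference table.

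From 69332 barcodes (777183139 UMIs, 45079131 to 150987900 per library), those passing the limits in the study's methods (more than 500 genes and 1000 UMIs, with less than 10% of UMIs mitochondrial and 5% from hemoglobin genes) were kept (2248 removed), and the 5% with the highest Scrublet doublet scores per library were removed (3354). Each nucleus was scaled to 10000 UMIs before a log transform. From 2000 variable genes, with the 7 genes and all listed genes that are not markers left out, 30 principal components and 20 neighbours gave a Leiden clustering at resolution 1, without integration, of 42 clusters. Clusters were named for 1 of 11 classes from the mean share of each marker's highest CPM, and 5 stayed unnamed. The markers MAP2, SLC1A3, PTPRC and VWF did not enter the naming. Clusters 16 and 34 stayed unnamed because markers of another class led them. Clusters 35, 37 and 39 did because a second class scored over 0.3 and over 0.5 of the best. The markers left out and these limits were chosen after the clusters had been seen. Doublet scores and variable genes came from scanpy 1.11.5, neighbours from scikit-learn 1.9.0, clusters from leidenalg 0.10.2 and intervals from scipy 1.17.1, under Python 3.11.15.

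UMIs were summed per class and library. CPM carry exact Poisson 95% intervals and ratios exact conditional binomial ones. With 1 library per group no test was made. The working of the rule of size was checked on libraries simulated from the intact lumbar profile, with counting noise and planted changes well past 2-fold. These hold no spread between animals and no changes near 2-fold. They cannot show how often the rule errs in the real libraries. The 7 genes, the lists and the markers were chosen with earlier results of these data known. All 7 genes are named. From each other list, genes called in all 4 injured libraries in a class were named, at most 4 per direction, and the 5 genes most like FKBP5 by Pearson r were taken among genes with at least 200 UMIs. Other genes (NR3C2, FOS, DUSP1, F13A1 and the genes called on too few UMIs) were named after their values were seen. Alternatives changed doublet removal, resolution, naming, reference, scaling, weighting of nuclei, depth, clusters, nuclei with LYVE1 or F13A1, the UMI minimum and the 2-fold rule. Motifs were searched in the Mmul_10 genome with RefSeq gene positions.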

Additional observations from a re-analysis of the deposited data

Results flagged for a closer look

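SGK1 lay on opposite sides of intact lumbar cord in 2 classes. In microglia/macrophage-like nuclei all 4 injured libraries were above intact lumbar cord, with the smallest log2 ratio 1.09 (7 dpi). In oligodendrocyte-like nuclei all 4 were below it, with the ratio nearest to 0 at -0.21 (6 mpi). The difference was not tested, since each group has 1 library. None of the 4 oligodendrocyte-like ratios met the 2-fold rule. At 7 dpi the microglia/macrophage-like level was inside the intact range, with a log2 ratio of 0.24 to the mean of the intact libraries.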

How the results depend on the processing

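With 1 library per group no alternative tests a difference, and leaving out a replicate was not possible. No paired analysis was possible because each group has 1 library. Depth limits ZBTB16 in microglia/macrophage-like nuclei and TSC22D3 and KLF9 in injured OPC- and astrocyte-like nuclei.

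FKBP5 in microglia/macrophage-like nuclei had log2 ratios of -3.21 to -1.75 over all settings, and the call held in each. Leaving out clusters with over 80% of nuclei from 1 library removed most injured nuclei. It left 37, 373, 924 and 87 of them from 7 dpi to 6 mpi, of which 34, 363, 912 and 54 were in the GPNMB-led cluster 14, against 1635 to 2481 per intact library, of which 1 to 15 were. The ratios, -2.95, -2.97, -3.21 and -1.98 in order of time, therefore set that cluster mainly against intact clusters and do not stand for the class. Without nuclei with LYVE1 or F13A1 they were -2.44, -2.91, -3.13 and -2.03 from 7 dpi to 6 mpi. Against the mean of the 3 intact libraries they were -2.11, -2.59, -2.82 and -1.75. Median-of-ratios scaling gave -2.74, -3.01 and -2.15 from 14 dpi to 6 mpi. Weighting nuclei equally gave -2.39 at 7 dpi and -1.94 at 6 mpi, and naming each nucleus alone gave -1.84 at 6 mpi.

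Of the 7 genes, 4 were lower and 1 higher in all injured microglia/macrophage-like libraries on those few nuclei, against 2 and 0, and 1 was higher without nuclei with LYVE1 or F13A1. In oligodendrocyte-like nuclei the 1 lower gene became 0 with the mean of the intact libraries or with equal weights, 3 with a 1.5-fold rule and 2 without 6 mpi (chosen after seeing the data). In OPC-like nuclei the 0 became 1 with doublets kept, with each nucleus named alone, with nuclei of 2000 UMIs or more, without clusters mostly of 1 library and with median-of-ratios scaling, 3 with a 1.5-fold rule and 2 without 6 mpi. In astrocyte-like nuclei the 2 became 1 with each nucleus named alone and with equal weights, where ZBTB16 at 6 mpi was -0.9995 and -0.89. Apart from leaving out 6 mpi, the share of all genes called under each setting is not given here. A looser rule calls more genes of any kind, so the changed counts are no result about the 7 genes. The cause of these differences was not tested. SGK1 in microglia/macrophage-like nuclei had log2 ratios of 0.80, 1.51, 2.24 and 3.75 with doublets kept, and of 3.26, 3.76, 3.88 and 5.38 on the few nuclei outside clusters mostly of 1 library. Of 46 called ratios of the 7 genes, 11 fell under 2-fold in at least 1 setting. Among these, PER1 at 14 dpi was also -0.99 without nuclei with LYVE1 or F13A1 and -0.93 with median-of-ratios scaling, and TSC22D3 in microglia/macrophage-like nuclei was -0.29 at 7 dpi and 0.68 at 6 mpi on the few nuclei outside clusters mostly of 1 library. No ratio reversed a call. SGK1 in astrocyte-like nuclei, which was not called, had log2 ratios of -2.83 to 3.45 over all times and settings.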
